A study of Mus musculus with 4 samples.

Results

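The genes described here are 9 genes of parvalbumin fast-spiking neurons, Pvalb, Kcnc1, Kcnc2, Kcnab3, Kcns3, Syt2, Nefh, Pthlh and Rbp4. They were picked by gene symbol from the 23991 symbols listed in each library, with their higher values in immunoprecipitate (IP) than in input already known. Their levels in that comparison are therefore given as a description, with no test. Each of the 9 had 1 entry in every library, and all 9 passed the filter on low values, as did 12417 genes in all.

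RNA came from the amygdala, both sides, of mice of genotype NpyCre/+;TRAPlox/lox, in which Cre is driven from Npy, which encodes neuropeptide Y, while the TRAPlox allele serves translating ribosome affinity purification (TRAP). TRAP recovers RNA on ribosomes that carry a tag in the cells where Cre has acted. The IP group and the input group share this genotype and have 2 libraries each. Every library was made from 200 ng of RNA from a pool of 3 mice, and each IP has its corresponding input. Age, sex and treatment are not given in the sources used here. Cells that expressed Npy earlier in life may also carry the tag, and no Cre-negative tissue was analysed here.

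Fast-spiking interneurons fire long trains of brief action potentials and inhibit the cell bodies of their targets. Kv3 potassium channels close quickly after each spike, parvalbumin binds calcium, and synaptotagmin 2 triggers fast release at many of their terminals. In cortex and the basolateral amygdala parvalbumin neurons are largely a separate class from the somatostatin neurons, and Npy is better known from the latter.

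Levels are FPKM, fragments per kilobase of transcript, scaled to the number mapped, so that levels of different genes can be set side by side. The sum of FPKM was 334759 and 335119 in the input libraries and 423985 and 419349 in the IP libraries, and depth is unknown because no read totals were at hand. Read as 2 SD of a count of fragments, the confidence limits in the files mean that the values of the 9 genes rest on between 39 fragments (Pthlh, input replicate 2) and 6774 fragments (Kcnc2, IP replicate 1), with limits at 32.1% and 2.43% of the value on either side. Npy itself was at 105.4 and 99.2 FPKM in input and at 1240.4 and 1167 FPKM in IP. Of all 12417 genes tested, 70.9% passed an adjusted p of 0.05 in limma, 37.0% higher and 33.9% lower in IP. Both IP values lay above both input values for 45.0% of genes and below them for 41.4%. That all 9 genes were among the higher calls and had groups that did not overlap follows from how they were picked.

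The promoters of 7 of the 9 genes matched the RefSeq table (GRCm38.p6, the build of the files), with 14 start sites between them, while Kcnab3 and Nefh had no entry. Each window runs from 250 bases before to 50 after a start site, and 3 are shown because Pvalb differed most between the groups and the other two hold a match to a motif that was searched. Capitals mark the matches, TNAAGGTCA in Syt2, where it reads on the opposite strand, and TATAAA in Rbp4.

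Pvalb, chr15:78206351-78206650, minus strand: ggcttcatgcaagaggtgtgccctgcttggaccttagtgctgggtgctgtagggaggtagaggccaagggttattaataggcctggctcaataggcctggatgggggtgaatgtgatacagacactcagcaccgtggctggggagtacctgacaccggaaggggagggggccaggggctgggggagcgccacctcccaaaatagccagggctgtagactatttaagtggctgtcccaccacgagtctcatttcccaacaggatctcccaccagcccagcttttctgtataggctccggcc

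Syt2, chr1:134646362-134646661, plus strand: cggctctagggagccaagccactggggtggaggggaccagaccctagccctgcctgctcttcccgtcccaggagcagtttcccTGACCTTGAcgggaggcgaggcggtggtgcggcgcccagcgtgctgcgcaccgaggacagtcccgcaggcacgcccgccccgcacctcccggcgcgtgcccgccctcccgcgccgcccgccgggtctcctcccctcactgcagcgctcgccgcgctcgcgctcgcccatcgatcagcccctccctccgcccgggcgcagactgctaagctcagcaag

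Rbp4, inner start site, chr19:38124762-38125061, minus strand: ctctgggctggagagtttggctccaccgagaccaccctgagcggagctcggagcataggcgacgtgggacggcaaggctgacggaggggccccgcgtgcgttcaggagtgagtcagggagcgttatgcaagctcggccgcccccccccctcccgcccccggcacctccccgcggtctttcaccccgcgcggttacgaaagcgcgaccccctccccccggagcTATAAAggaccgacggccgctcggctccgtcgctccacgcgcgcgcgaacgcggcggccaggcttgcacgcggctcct

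TNAAGGTCA, the letters of an estrogen-related receptor element, was found on either strand in 1.28% of 32851 promoter windows and in 1 of the 14 windows of these genes. In Syt2 its first base lies at -167 from the start site. TATAAA was found in 13.6% of all windows and in 1 of the 14, with its first base at -28 from the inner start site of Rbp4. CACGTG was found in 7.15% of all windows and in 0 of the 14. The windows of these genes did not share a base composition. The GC content ranged from 40.7% at the outer start site of Rbp4 to 74.7% in Kcnc1, with 58.3% in the Pvalb window shown, against a median of 52.7% over all windows.

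Pvalb encodes parvalbumin, the calcium-binding protein that names the class. The gene spans 78191118 to 78206351 of chromosome 15 (mm10, exons and introns, as for the other positions given). Its level was 32.3 and 29.8 FPKM in the input libraries, and 375 and 297 FPKM in the IP libraries, replicate 1 first. Both IP libraries were far above both input libraries, with IP replicate 1 the higher. The means were 31.1 ± 1.70 and 336 ± 55.3 FPKM (SD, n = 2), 10.8-fold apart, and the log2 difference on the log2(FPKM + 1) scale was 3.39. Among all genes tested, 9 had a larger difference. Set against Npy within each library, Pvalb was at 0.306 and 0.301 of the Npy level in input and at 0.303 and 0.254 in IP, so the ratio of these genes was nearly the same on both sides in the pair of replicate 1. Set against Gad1, which encodes a GABA-synthesizing enzyme, it went from 0.252 and 0.234 in input to 0.637 and 0.469 in IP.

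**Figure D1:**
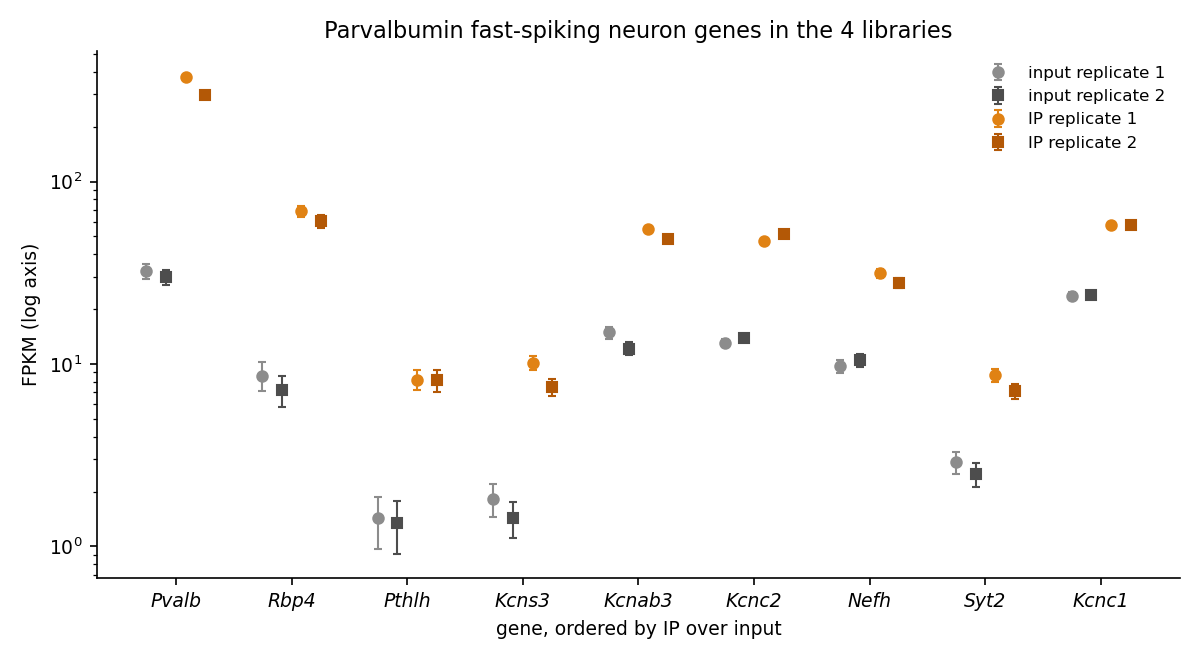
FPKM on a log axis of the 9 genes in each of the 4 libraries, ordered by IP over input; circles are replicate 1, squares replicate 2, and bars are the confidence limits listed in the files. Both IP libraries lie above both input libraries for each gene, from 10.8-fold for Pvalb to 2.44-fold for Kcnc1.

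Kcnc1 and Kcnc2 encode Kv3.1 and Kv3.2, the pore subunits of the fast potassium channels. Kcnc1, on chromosome 7 from 46396468 to 46438704, was at 23.6 and 23.9 FPKM in input and at 57.8 and 58.1 FPKM in IP. The replicates were almost level in each group, and the mean was 2.44-fold higher in IP (log2 difference 1.25). Kcnc2, on chromosome 10 from 112271123 to 112466304, was at 13.0 and 13.8 FPKM in input and at 47.3 and 51.5 FPKM in IP. Its groups also lay apart, at 3.68-fold (log2 difference 1.80). Within a library, which is independent of any scaling between libraries, Kcnc2 was at 0.553 and 0.577 of the Kcnc1 level in input and at 0.818 and 0.886 in IP.

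Kcnc4, which encodes Kv3.4, was at 24.5 and 29.4 FPKM in input and at 18.9 and 17.9 FPKM in IP, and fell by 0.52 on the log2 scale (SE 0.09; limma, adjusted p = 0.00273). It thus lay above Kcnc1 and Kcnc2 in both input libraries and below them in both IP libraries. In input replicate 1 the Kcnc4 value lay within the confidence limits of Kcnc1, 22.4 to 24.7 FPKM. The Kcnc4 call was lost without the filter on low values (limma, adjusted p = 0.0671).

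Kcnab3 encodes Kv beta 3, a cytoplasmic subunit that binds Kv1 channels. It spans 69326258 to 69333041 of chromosome 11 and was at 14.9 and 12.2 FPKM in input and at 55.2 and 48.5 FPKM in IP. Both IP values stood well clear of input, and the mean was 3.83-fold higher (log2 difference 1.87). The other Kv beta genes were more abundant, and the values of their differences were smaller. Kcnab1 went from a mean of 48.8 ± 5.78 to one of 78.6 ± 3.24 FPKM (SD, n = 2; log2 difference 0.68; limma, adjusted p = 0.00063). Kcnab2 had means of 102 ± 2.83 and 133 ± 14.4 FPKM (SD, n = 2; log2 difference 0.37; limma, adjusted p = 0.00572). Its call did not survive leaving out input replicate 1 (0.34, limma, adjusted p = 0.0687) or rescaling each library to the same FPKM sum, called rescaling from here on (0.035, limma, adjusted p = 0.693). With quantile normalization the Kcnab2 difference was -0.053 (limma, adjusted p = 0.539), and its adjusted p ran from 0.00126 to 0.693 over all alternatives. Kcnab3 made up 8.85% and 7.54% of the summed Kv beta FPKM in both input libraries and 19.7% and 19.6% in both IP libraries. Of the 7 genes of the other Kv beta subunits and the Kv1 pores tested, 5 rose and 1 fell, which after rescaling became 1 and 2. Kcna4, the pore gene that fell, changed by -0.60 (limma, adjusted p = 0.00162). Kcna1 and Kcna2, pore genes of axonal Kv1 channels, each rose by 0.38, and after rescaling the differences were 0.064 and 0.061, neither past the threshold. The Kcna1 difference also missed it without input replicate 1 (0.40) or input replicate 2 (0.36).

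Kcns3 encodes Kv9.3, a silent subunit that forms channels only together with Kv2 pores. Its locus on chromosome 12 runs from 11090202 to 11150842, and it was at 1.83 and 1.43 FPKM in input and at 10.2 and 7.50 FPKM in IP, 5.43-fold higher on average (log2 difference 1.89). The IP libraries differed from each other by more than the input libraries did, yet both lay far above them. The related Kcns1 and Kcns2 had lower means in IP. Kcns2 fell from 6.26 ± 0.59 to 4.61 ± 0.12 FPKM (SD, n = 2; log2 difference -0.37; limma, adjusted p = 0.00918). That call was lost without input replicate 2 (-0.29), with quantile normalization (-0.17) or after correction for transcript length (-0.18; limma, adjusted p from 0.000857 to 0.145 over all alternatives). Kcns1 was at 3.89 ± 0.17 and 3.31 ± 0.68 FPKM with overlapping groups (-0.19; limma, adjusted p = 0.201). The Kcns1 difference was -0.53 after rescaling and -0.35 without IP replicate 1, both past the threshold, and 0.11 with quantile normalization. Kcns3 had the lowest level of these 3 genes in both input libraries and the highest in both IP libraries, at 15.6% and 12.02% of their sum in input and 54.5% and 50.5% in IP. Of 8 Kv2 pore and other silent subunit genes tested, 6 fell and 1 rose, with quantile normalization 3 fell and 1 rose, and after correction for transcript length 3 fell and 2 rose, with Kcnb2, a Kv2 pore gene, turning from -0.45 to 0.28 (limma, adjusted p = 0.0429, with 0.00236 to 0.515 over all alternatives). Kcnb2 was at 1.11 and 1.37 FPKM in input and 0.629 and 0.650 FPKM in IP, so only its input values reached the filter. Kcng1 and Kcnv1, silent subunit genes, changed by -1.06 and -0.87. Kcng4, the silent subunit gene that rose, was at 0.733 and 0.646 FPKM in input and 3.19 and 1.72 FPKM in IP (log2 difference 1.00; limma, adjusted p = 0.00457), with the call lost without input replicate 1 (1.04) or input replicate 2 (0.96). Only its IP values reached the filter.

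**Figure D2:**
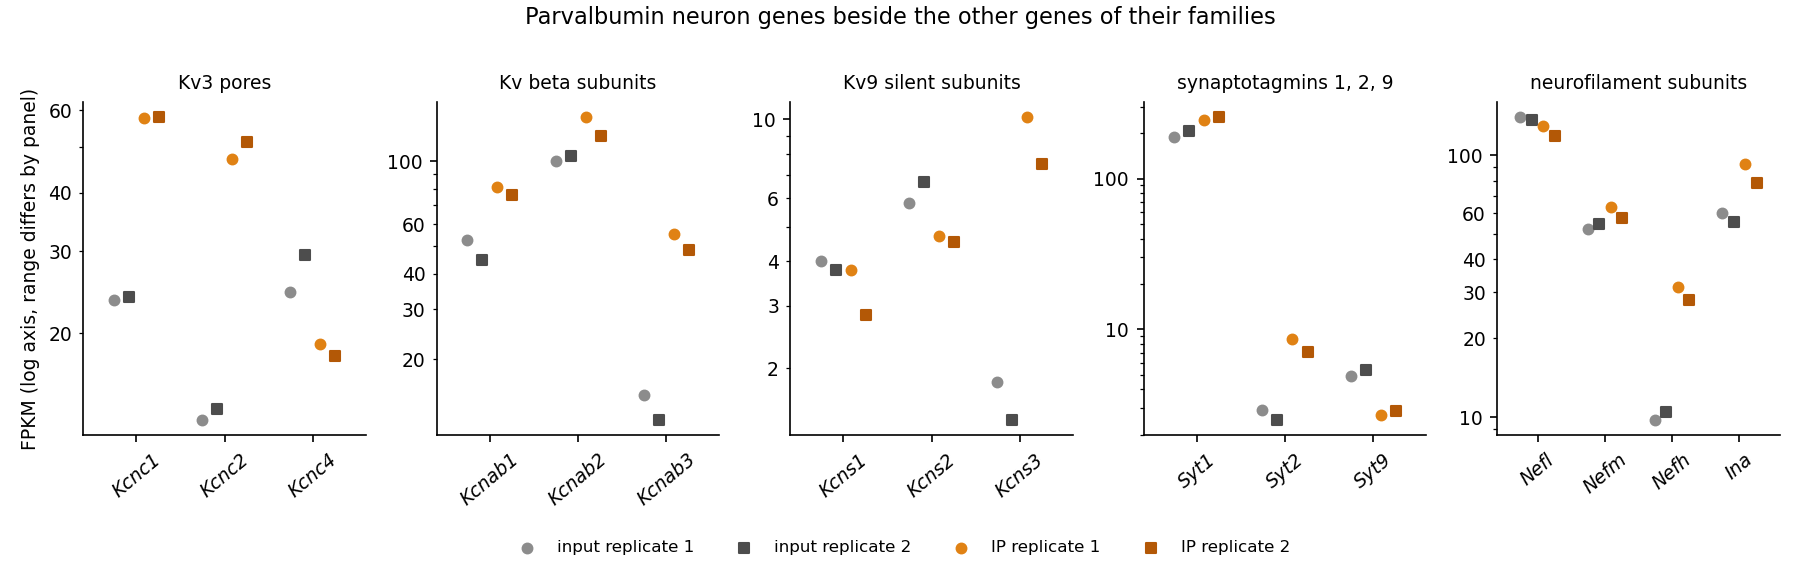
FPKM of genes of 5 families on log axes whose range differs by panel; circles are replicate 1, squares replicate 2, grey input and orange IP. Kcnc1 and Kcnc2 lead the Kv3 panel in IP at 47.3 to 58.1 FPKM, and Kcns3 moves from the bottom to the top of its panel.

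Syt2 encodes synaptotagmin 2, a calcium sensor of fast transmitter release. Its position is chromosome 1 from 134646681 to 134749417, and it was at 2.90 and 2.49 FPKM in input and at 8.68 and 7.11 FPKM in IP, 2.93-fold higher (log2 difference 1.27). Both groups were low but lay apart. Syt1, the sensor of most forebrain synapses, remained the more abundant gene at 28.2 and 35.9 times the Syt2 level in IP, against 65.2 and 83.3 times in input. Syt1 rose by 0.34 on the log2 scale (limma, adjusted p = 0.00282), but was at -0.00020 after rescaling and -0.15 with quantile normalization, neither past the threshold. Syt9, the third fast sensor, fell from 5.11 ± 0.32 to 2.77 ± 0.13 FPKM (SD, n = 2; log2 difference -0.69; limma, adjusted p = 0.000565), so that Syt2 went from 0.593 and 0.466 to 3.24 and 2.48 times the Syt9 level. Of 8 genes of other synaptotagmins and the release machinery tested, 2 rose and 6 fell. Cplx1, which encodes a complexin that clamps and speeds vesicle fusion, was at 333 and 339 FPKM in input and 1201 and 1154 FPKM in IP (log2 difference 1.81, SE 0.05; limma, adjusted p = 8.59e-06). The genes that fell included Cacna1b, the pore gene of N-type calcium channels, at -0.88, Syt7 at -0.73 and Doc2b at -0.65.

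Nefh encodes the heavy neurofilament subunit, which is plentiful in large, fast-conducting axons. It is found at 4938756 to 4948064 of chromosome 11 and was at 9.73 and 10.5 FPKM in input and at 31.3 and 27.9 FPKM in IP, 2.93-fold higher (log2 difference 1.46). The groups lay apart. The last 544 bases of its locus overlap Ap1b1, which was at 47.7 and 51.7 FPKM in input and 62.0 and 60.2 FPKM in IP, and reads there cannot be told apart without strand. No other of the 9 genes overlapped a listed entry. Of the 4 other neurofilament genes tested, 2 rose and 2 fell, and with quantile normalization 0 rose and 1 fell. Nefl, the light subunit, was at 139.7 and 135.6 FPKM in input and 129.0 and 118.1 FPKM in IP, and the medium subunit Nefm at 52.2 and 54.8 FPKM in input and 63.4 and 57.6 FPKM in IP. Their differences of -0.16 and 0.17 passed narrowly (limma, adjusted p = 0.0499 and 0.0495), and these calls were lost in 8 and 10 of 16 alternatives, with -0.16 and -0.15 for Nefm after rescaling and with quantile normalization. With 1 library left out the differences ran from -0.22 to -0.093 for Nefl and from 0.10 to 0.24 for Nefm. Both calls were lost without input replicate 1 or input replicate 2, that of Nefm without IP replicate 1 and that of Nefl without IP replicate 2. Ina, which encodes alpha-internexin, rose by 0.56 (limma, adjusted p = 0.00172), and by 0.22 after rescaling or with quantile normalization, neither past the threshold. Prph, the peripherin gene, was at 1.06 and 1.69 FPKM in input and 0.496 and 0.470 FPKM in IP, so only its input values reached the filter. It fell by 0.67 on the log2 scale (limma, adjusted p = 0.00628), a call lost with quantile normalization (-0.11). The ratio of Nefl to Nefh within a library was 14.4 and 12.9 in input and 4.12 and 4.23 in IP.

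Pthlh encodes parathyroid hormone-related peptide, a secreted peptide found in subsets of interneurons. It covers 147252110 to 147264085 of chromosome 6 and was at 1.42 and 1.34 FPKM in input and at 8.19 and 8.15 FPKM in IP, 5.91-fold higher (log2 difference 1.94). Its input values rest on the fewest fragments of the 9 genes, 40 and 39 under the reading of the limits given above, and still lay apart from IP. Of its receptors, Pth1r had means of 1.73 ± 0.07 and 2.27 ± 0.56 FPKM (SD, n = 2; limma, adjusted p = 0.129) and Pth2r stayed below the filter, at 0.406 to 0.576 FPKM in the 4 libraries. The Pth1r difference of 0.25 was 0.43 without IP replicate 1 and 0.65 with quantile normalization, both past the threshold, and 0.078 without IP replicate 2.

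Rbp4 encodes the retinol-binding protein that carries vitamin A in plasma. The gene sits on chromosome 19 from 38116620 to 38125321 and was at 8.65 and 7.23 FPKM in input and at 68.9 and 60.7 FPKM in IP, 8.17-fold higher (log2 difference 2.88). Both IP values were well clear of input, and 14 of the genes tested had a larger difference. The gene-level values do not say which of its start sites was used. Other retinoid transport genes were split. Crabp1, which encodes a cellular retinoic acid-binding protein, rose by 2.14 (limma, adjusted p = 2.12e-05). Stra6, the gene of the Rbp4 receptor, fell by 0.90 on the log2 scale. It was low, at 1.16 and 1.24 FPKM in input and 0.159 and 0.191 FPKM in IP, and only its input values reached the filter. Its difference was -2.24 with a pseudocount of 0.1 and -0.26 with 5. Ttr, whose product carries Rbp4 in plasma and which marks choroid plexus, was at 172 and 9.66 FPKM in input and 10.4 and 1.31 FPKM in IP (log2 difference -3.07; limma, adjusted p = 0.0795). Its difference passed the threshold without input replicate 2 (-5.08), without IP replicate 1 (-4.22) and with the replicate block (limma, adjusted p = 5.17e-05, with 5.17e-05 to 0.434 over all alternatives). The 6 choroid plexus markers, Ttr among them, summed to 183 and 13.1 FPKM in input and 13.3 and 4.26 FPKM in IP. Rbp4 was 7.97-fold and 8.40-fold higher in IP in these pairs, and the part of choroid plexus RNA in its level was not tested.

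The 9 genes held an order in their IP over input ratio that was largely the same in both pairs of libraries. Pvalb led at 11.6 and 9.95, followed by Rbp4 at 7.97 and 8.40, Pthlh at 5.75 and 6.08, and Kcns3 at 5.56 and 5.26. Each of these was separate from the next by its ratios in both pairs, which leaves out the confidence limits of each FPKM. Those limits were at 31.8% and 32.1% of the Pthlh input values and 20.3% and 22.5% of the Kcns3 input values. The order of Pthlh and Kcns3 is therefore not settled. Below them Kcnab3 at 3.71 and 3.99 overlapped with Kcnc2 at 3.63 and 3.73, and Nefh at 3.22 and 2.67 overlapped with Syt2 at 2.997 and 2.86, while Kcnc1 was lowest at 2.45 and 2.43. The genes of GABA synthesis and vesicle loading, Gad1, Gad2 and Slc32a1, summed to a ratio of 4.26 and 4.60. The first 4 genes lay above that ratio in both pairs and the remaining 5 below it, which again leaves out the confidence limits. With the limits given above, the places of Pthlh and Kcns3 relative to that ratio are not settled either. Transcript length ran from 977 bases for Pvalb and 1161 for Rbp4 to 7760 for Kcnc1. The log2(FPKM + 1) scale understates changes of low genes. On it, before correction for length, the differences of Pthlh, Kcns3, Kcnab3 and Kcnc2 were 1.94, 1.89, 1.87 and 1.80. Those of Nefh, Syt2 and Kcnc1 were 1.46, 1.27 and 1.25. After correction for transcript length, on the same scale, Pvalb and Rbp4 still led, at log2 differences of 2.93 and 2.48. Next came Kcnc2 at 1.97, Kcns3 at 1.83, Kcnab3 at 1.75 and Pthlh at 1.65. Kcnc1 at 1.60, Syt2 at 1.56 and Nefh at 1.53 were last. The part of transcript length in the order was not tested. In level, Pvalb was first and separate from the next gene in both groups, and Rbp4 went from sixth in input to second in IP. In input Kcnab3 and Kcnc2 could not be separated by their replicates. In IP the same held for Kcnab3 and Kcnc2, and for Kcns3, Pthlh and Syt2 among the lowest.

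**Figure D3:**
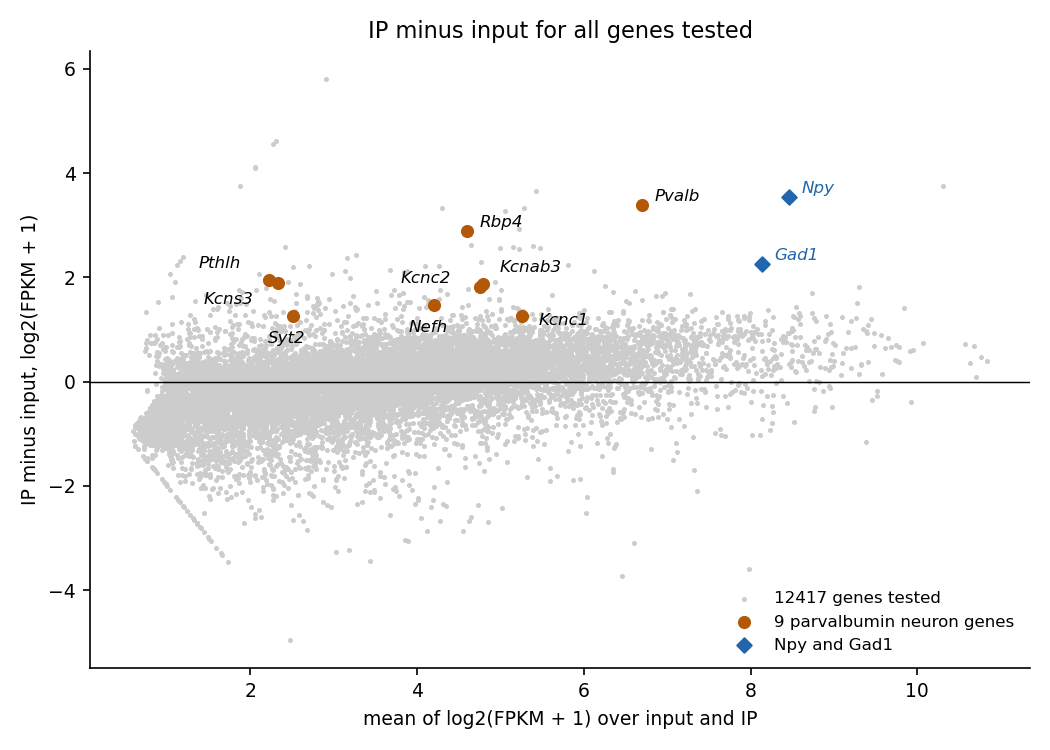
IP minus input on the log2(FPKM + 1) scale against the mean level for the 12417 genes tested (grey), the 9 genes (orange) and Npy and Gad1 (blue). The orange points lie between 1.25 and 3.39, with Pvalb next to Npy in height.

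By the distance between log2(FPKM + 1) values centred on each gene's mean, over the 4 libraries, the genes most like Pvalb were Npy (0.24), Cox6a2 (0.33), Cort (0.35), Crhbp (0.43) and Sst (0.46), with log2 differences of 3.27 to 3.75. Cox6a2 encodes a subunit isoform of cytochrome c oxidase, Cort and Sst the peptides cortistatin and somatostatin, and Crhbp a protein that binds corticotropin-releasing hormone. Of the other 8 genes, Rbp4 was nearest to Pvalb, at place 7 of 12416, and Kcnc1 was farthest, at place 191. With 2 libraries per group this measure follows the size of the difference and shows nothing of which cells hold both transcripts. Sst was at 11.1 and 11.2 times the Pvalb level in input and 12.2 and 16.0 times in IP. In these bulk samples more cells of a type and more RNA per cell cannot be told apart.

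Genes listed as regulating or equipping parvalbumin neurons were mostly higher in IP, against 37.0% of all genes tested. These lists were chosen with earlier results of these data known, so their counts are a description. Of 11 tested transcription regulators, 9 rose and 2 fell, with a median log2 difference of 1.41 against 0.025 over all genes tested, and 9 and 2 after rescaling. Lhx6 and Nkx2-1, which specify interneurons born in the medial ganglionic eminence, rose by 2.93 and 1.66. Nkx2-1 was at 0.563 and 0.542 FPKM in input and 3.30 and 4.59 FPKM in IP, so only its IP values reached the filter. Its difference was 0.68 with a pseudocount of 5 and 2.61 with 0.1. Esrrg, an estrogen-related receptor gene, was at 5.49 and 5.31 FPKM in input and 17.0 and 16.4 FPKM in IP (log2 difference 1.47; limma, adjusted p = 2.5e-05). Esrra, whose product binds the same letters, rose by 1.21, and Ppargc1a, the gene of their coactivator, by 0.71. The genes that fell were Etv1 at -0.72 and Mef2c at -0.26. The Mef2c call was lost without input replicate 1 (-0.26) or input replicate 2 (-0.25), and its difference was -0.0063 after correction for transcript length.

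Of 7 tested genes of synaptic receptors, perineuronal nets and metabolism, all 7 rose, and after rescaling 6 did. This list too was chosen with earlier results of these data known. Cox6a2 went from 9.14 and 10.2 FPKM in input to 101.0 and 102.4 FPKM in IP (log2 difference 3.27; limma, adjusted p = 4.44e-06). Hapln4 and Hapln1, link protein genes of perineuronal nets, rose by 1.25 and 1.07, and Gria4, an AMPA receptor subunit gene, by 0.99. Acan, the gene of the net proteoglycan aggrecan, stayed below the filter at 0.27 to 0.32 FPKM.

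Sodium channel genes were split, with 2 of 5 higher and 3 lower, and 3 higher and 1 lower after correction for transcript length. Scn1a, the pore gene of Nav1.1, rose by 0.82. Scn2a1, the pore gene of Nav1.2, changed by -0.55, a call lost after correction for transcript length (-0.13). Scn4b, a beta subunit gene, changed by -0.95. Its call was lost without input replicate 1 (-0.65). Scn8a, the pore gene of Nav1.6, changed by -0.27 but by 0.30 after correction for transcript length, both past the threshold (limma, adjusted p = 0.00603 and 0.00501, with 0.000229 to 0.0478 over all alternatives). Among other calcium buffers, Calb1, which encodes calbindin, rose by 1.70 and Calb2, which encodes calretinin, by 0.44, a call lost after rescaling (0.11) and without input replicate 1 (0.35) or input replicate 2 (0.53). Ocm, the other parvalbumin gene, stayed below the filter at 0.171 to 0.935 FPKM. Over all 59 such genes tested, 32 rose, 23 fell and 4 did not pass, against 37.0% higher and 33.9% lower over all genes. After rescaling 22 were higher and 25 lower.

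**Figure D4:**
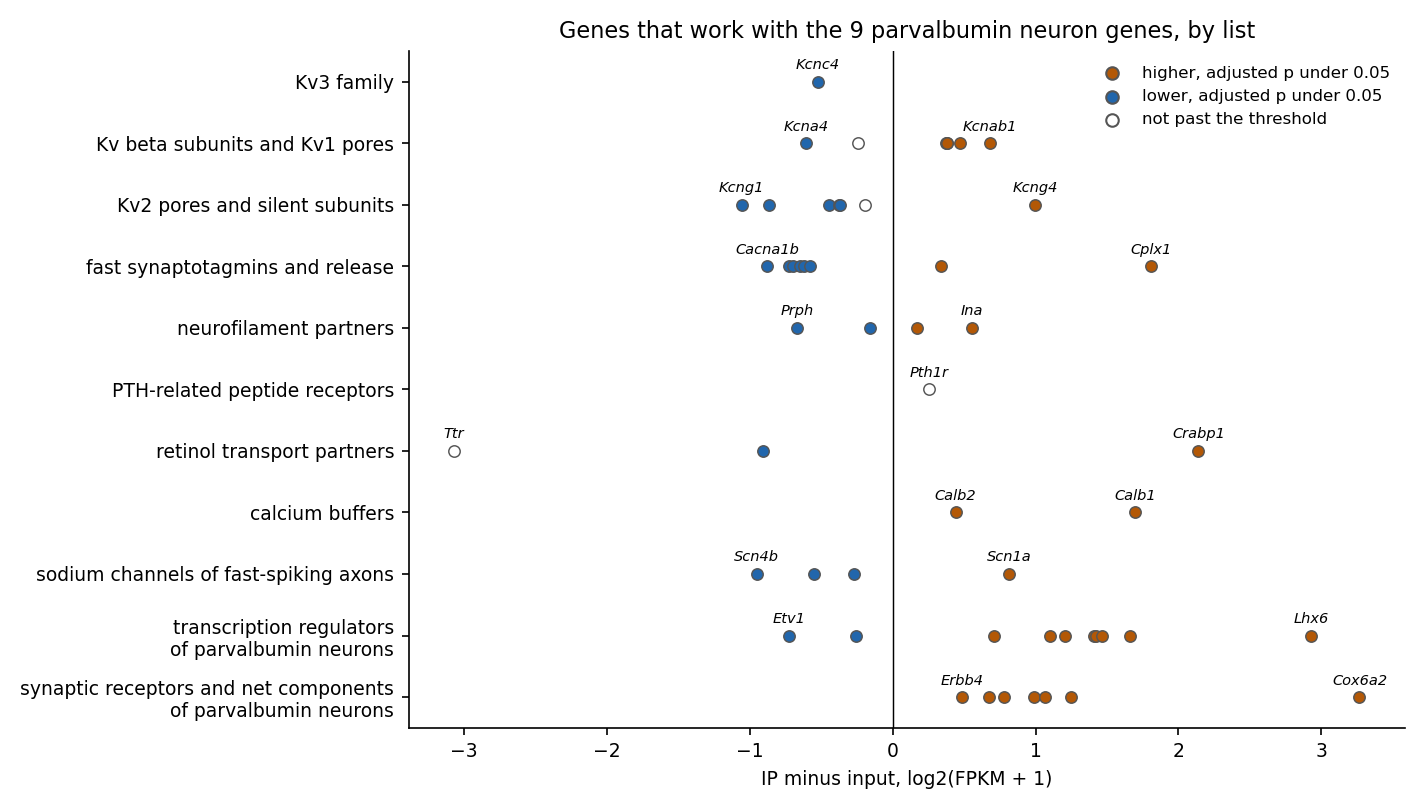
IP minus input on the log2(FPKM + 1) scale for tested genes of 11 lists, with 1 point per gene shown; filled points passed an adjusted p of 0.05 in limma and the genes at both ends of a list, among those shown, are named. The transcription regulators reach 2.93 (Lhx6), whereas 6 of 8 genes of the release list lie below 0.

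Several of the 9 genes are also active in other cells, whose markers were read in the same libraries. Parvalbumin is a major protein of fast skeletal muscle. Of 9 skeletal muscle markers, 8 stayed under 1 FPKM in all libraries, Atp2a1 was listed at 0 throughout, and the list summed to 9.82 and 8.48 FPKM in input against 11.9 and 9.70 FPKM in IP, most of it Acta1. Of 8 markers of sensory ganglion neurons, which can hold Pvalb and Nefh, 7 stayed under 1 FPKM, with sums of 1.47 to 2.12 FPKM in input and 0.552 to 0.638 in IP. Among 5 tested thalamic markers, 3 fell and 2 rose, against 33.9% lower and 37.0% higher over all genes tested. Slc17a6, Tcf7l2 and Lhx9 changed by -1.04, -1.12 and -1.02, and Six3 and Ecel1 by 0.36 and 0.89. Tcf7l2 and Lhx9 reached the filter in input alone. The 6 markers of this list summed to 17.8 and 20.3 FPKM in input and 17.6 and 25.0 FPKM in IP. Six3 and Ecel1 are known from the thalamic reticular nucleus, which is rich in Pvalb, and their part in the Pvalb level was not tested.

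Markers of glutamatergic projection neurons summed to 390 and 400.1 FPKM in input and to 243 and 158 FPKM in IP replicates 1 and 2, with 4 of 6 lower, 0 higher and 2 not past the threshold. Their summed level was thus higher in IP replicate 1 than in IP replicate 2, and 7 of the 9 genes were also higher in IP replicate 1, against 51.7% of all genes tested. Their part in this was not tested. Of the tested markers of astrocytes, oligodendrocytes, microglia and meningeal fibroblasts, 5 of 6, 6 of 6, 6 of 6 and 5 of 5 fell, against 33.9% of all genes tested. The 6 microglia markers, Slc7a10 of astrocytes, and Col1a1, Col1a2 and Slc6a13 of fibroblasts passed the filter through their input values alone.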

How the data were processed

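The deposited values are gene-level FPKM with confidence limits, made by the authors with Cufflinks for each library after TopHat alignment with default settings to mm10, using the UCSC transcript annotation of iGenomes, per the series' design text. Libraries came from a TruSeq RNA kit and 100 base single-end reads, per the labels and the design text; versions and strand are not given in the sources used here. No scaling between libraries is recorded.

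Groups and numbers came from the sample titles; the source description of IP replicate 2 gives replicate 1. Entries with a failed status (8) and with small RNA names (1276) were left out, and the entry with the highest mean was kept per symbol. A gene was tested if 2 or more libraries had an FPKM of 1 or higher, as log2(FPKM + 1), which understates changes of low genes, with lmFit and eBayes with trend in limma 3.58.1 (R 4.3.3), two-sided, with Benjamini-Hochberg adjustment over all genes. The test was checked on simulated data with few changed genes and no pairs, unlike these data, so its error rate here was not tested. The p-values measure only the spread of 2 pools per group. Each IP had a corresponding input per the design text, so equal numbers were taken as pairs; the deviations of IP replicate 1 and input replicate 1 from their group means correlated at 0.163 across genes. Starts are written 1-based.

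The 9 genes and all lists were chosen with earlier results of these data known. The rule for other named genes took the genes of the same families, up to 4 called genes with the largest difference per list, Npy, Sst and Gad1, and the 5 genes nearest to Pvalb. Some genes that this rule takes are not reported here. Esrra, Ppargc1a, Etv1, Mef2c, Acan, Pth1r, Pth2r, Ttr, Six3, Ecel1, Slc17a6, Tcf7l2, Lhx9, Acta1, Atp2a1, Scn8a, Kcnb2, Kcna3, Kcng2, Slc7a10, Col1a1, Col1a2 and Slc6a13 were named after their values were seen. Of 66 companion symbols, 64 were listed and 59 tested. Protein sequences were not used here. Alternatives were other pseudocounts (0.1 and 5), filters and scalings, summed entries, a correction for transcript length (a length was found for 99.4% of the genes tested), eBayes without trend, a replicate block, each library left out and, added after the data were seen, small RNA genes kept. Python 3.11.15, pandas 2.3.3, numpy 2.4.6 and matplotlib 3.10.9 made the tables and figures.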

Additional observations from a re-analysis of the deposited data

How the results depend on the processing

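The 9 genes kept a higher level in IP in all 16 alternatives. Their log2 differences moved by more than 1.5 times for Kcns3 (1.89 to 1.06), Syt2 (1.27 to 0.74) and Pthlh (1.94 to 1.05), each with a pseudocount of 5. After correction for transcript length Pvalb was at 2.93 and Kcnc1 at 1.60. Over all genes tested, 4597 were higher and 4206 lower, and with 1 library left out the counts ran from 3760 to 4234 higher and from 3331 to 4020 lower. Rescaling each library to the same sum gave 2227 higher and 6685 lower genes and moved the median of all genes from 0.025 to -0.29, and a filter at FPKM of 5 gave 2437 lower genes. With the replicate block, 4746 were higher and 4370 lower, and the call of Ttr was gained (-3.07, adjusted p = 5.17e-05, with 5.17e-05 to 0.434 over its alternatives). The block changed no other call among the genes working with the 9. Of the 55 calls among those genes, 32 kept their direction and their side of the threshold in all alternatives that could be run, and 18 were lost without the filter on low values. With 1 library left out, the counts of calls among those genes, gained calls included, ran from 26 to 32 higher and from 20 to 24 lower. A planned comparison of protein sequences was not run. Among 64 genes looked at, 8 changed sign in an alternative. After correction for transcript length Scn8a (0.30) and Kcnb2 (0.28) turned from lower to higher calls. The other changes, none past the threshold, were those of Syt1 (-0.00020 after rescaling, -0.15 with quantile normalization), Nefm (-0.16 and -0.15), Kcnab2 (-0.053 with quantile normalization) and, with quantile normalization, Kcns1 (0.11), Kcna3 (0.11), Kcng2 (0.063) and Kcnb2 (0.092); the cause was not tested. With the 250 bases before the start alone, 12.4% of promoters held TATAAA, 1.14% TNAAGGTCA and 6.02% CACGTG, by construction fewer. FPKM without read totals limits the lowest values, those of Pthlh and Kcns3 in input.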
